A study of Mus musculus with 58 samples.

Results

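The genes described are 10 that prepare peptides for display on major histocompatibility complex class I molecules, out of 24537 genes counted in mouse whole liver. They were taken by symbol as Tap1, Tap2, Tapbp, Psmb8, Psmb9, Psmb10, Psme1, Psme2, Nlrc5 and Erap1, without regard to their values, and all 10 were found with 1 entry each. The 58 libraries came from whole livers of male C57BL6/J mice, 42 old and 16 young, in a study of interferon signalling, age and liver cancer. All mice carried an AAV8 vector with the TBG promoter, which is active in hepatocytes, so that the vector's gene is expected in hepatocytes and not in the other cells of the liver. Its gene was Myc, whose protein turns on genes for cell growth, or the fluorescent protein mApple as the control. All mice were also gavaged, with vehicle or with ruxolitinib, which blocks JAK1 and JAK2, the kinases that carry the signal of interferon receptors. Ruxolitinib was given at 45 mg/kg 2 times daily for 30 days with a break of 2 days at weekends.

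The old groups are old Myc ruxolitinib (14 libraries), old Myc vehicle (11), old mApple ruxolitinib (9) and old mApple vehicle (8). The young groups, aged 4 months, are young Myc ruxolitinib (10) and young mApple vehicle (6). Libraries were sequenced in 2 batches: the first holds 18 old livers (25 months) and the second 24 old livers (24 months) and all 16 young ones, so age within the old mice and batch cannot be told apart. No young group here pairs Myc with vehicle or mApple with the drug, so in young livers the effects of vector and drug cannot be told apart. Each library is spoken of as a liver and named by its number in the labels, but these do not say whether each came from a separate mouse, and p-values then measure only the spread between libraries, which may be technical.

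Nucleated cells show fragments of their own proteins on class I molecules, where CD8 T cells inspect them. Fragments are cut by the proteasome, whose catalytic subunits can be exchanged for induced ones to form the immunoproteasome, and are then carried into the endoplasmic reticulum, trimmed and loaded. Interferon, above all interferon gamma acting through JAK1 and JAK2, is known to induce most of these genes, and NLRC5 is a transactivator that acts with the RFX, NF-Y and CREB proteins on class I promoters. Hepatocytes are known to carry little class I on their surface in the resting state.

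The genes lie on 4 chromosomes of the GRCm38 genome. Psmb9, Tap1, Psmb8 and Tap2 form a cluster of 34.2 kb at chr17:34182099-34216321 within the major histocompatibility complex, in which Psmb9 and Tap1 start 225 bases apart and are read in opposite directions. Tapbp lies on the same chromosome at chr17:33919478-33929290. Psme1 (chr14:55578494-55581527) and Psme2 (chr14:55587440-55591021) are separated by 5.9 kb, Nlrc5 (chr8:94472763-94527272) and Psmb10 (chr8:105935728-105938392) lie on chromosome 8, and Erap1 lies at chr13:74639872-74691875. Promoter windows from RefSeq on GRCm38.p6, each of 300 bases from 250 before the gene start to 50 after it, were at hand for 8 of the 10 genes, in 9 windows. Tap2 and Nlrc5 had none.

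The windows were searched on both strands for 3 motifs: GAAA followed after any 2 bases by GAAA, the core of the element bound by interferon-stimulated gene factors (ISRE), TTCNNNGAA, the interferon gamma activated element (GAS), and CCAAT, the box bound by NF-Y. The windows below are shown because the tests that follow concern genes known to answer to these factors; capitals mark the matches. The first is the stretch between Psmb9 and Tap1, whose windows share 275 bases, and it holds a CCAAT match at position -222 from the Tap1 start (chr17:34187306-34187605, + strand). The second, before Psmb8 (chr17:34197945-34198244, + strand), holds a GAS match at position -97. Psme1 (chr14:55578244-55578543, + strand) has an ISRE match at position 9 after its start, and Erap1 (chr13:74639603-74639902, + strand) has 1 at position -4 from the start that RefSeq gives, which is not that of the counted transcript.
Tap1: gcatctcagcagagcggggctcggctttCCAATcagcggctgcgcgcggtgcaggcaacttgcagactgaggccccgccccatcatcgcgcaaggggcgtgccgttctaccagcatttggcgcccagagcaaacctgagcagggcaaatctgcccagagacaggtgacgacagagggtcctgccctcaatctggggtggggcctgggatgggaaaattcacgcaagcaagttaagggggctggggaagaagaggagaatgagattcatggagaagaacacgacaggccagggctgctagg
Psmb8: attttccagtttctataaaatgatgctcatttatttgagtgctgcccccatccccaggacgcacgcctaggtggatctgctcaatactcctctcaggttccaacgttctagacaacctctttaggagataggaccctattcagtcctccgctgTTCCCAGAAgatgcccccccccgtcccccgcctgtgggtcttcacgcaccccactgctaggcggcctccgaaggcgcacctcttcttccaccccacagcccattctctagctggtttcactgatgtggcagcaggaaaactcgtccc
Psme1: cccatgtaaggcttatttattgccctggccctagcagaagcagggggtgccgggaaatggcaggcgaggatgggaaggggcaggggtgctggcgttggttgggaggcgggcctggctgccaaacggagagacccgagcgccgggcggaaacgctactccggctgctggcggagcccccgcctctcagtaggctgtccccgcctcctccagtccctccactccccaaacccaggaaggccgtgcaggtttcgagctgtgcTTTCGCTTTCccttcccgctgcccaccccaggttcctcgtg
Erap1: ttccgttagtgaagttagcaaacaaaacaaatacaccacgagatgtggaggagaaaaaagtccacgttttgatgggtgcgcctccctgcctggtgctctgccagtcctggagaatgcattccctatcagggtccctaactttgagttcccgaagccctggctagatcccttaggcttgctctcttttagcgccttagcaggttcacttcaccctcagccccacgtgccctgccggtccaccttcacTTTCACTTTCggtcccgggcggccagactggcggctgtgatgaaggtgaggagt
Of the remaining windows, that of Tapbp held 2 CCAAT matches and those of Psmb10 and Psme2 held none of the 3. Among 32851 RefSeq windows of the same length, 3.44% held the ISRE letters, 8.30% the GAS letters and 37.4% the CCAAT letters. A match is a description of the letters, not of binding, and its absence from a window says nothing about a factor.

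Library totals ran from 10.68 to 40.98 M counts (median 14.59 M), and 0 of the 164 pairs of libraries of the same group and batch held identical values. Every one of the 10 genes was counted in every library, the lowest count being 40 for Psmb9. The vector was seen in the RNA: Myc, in CPM (counts scaled to a common library size) of the second batch, had medians of 31.0, 35.7 and 50.9 in old Myc ruxolitinib, old Myc vehicle and young Myc ruxolitinib livers, against 4.73, 6.86 and 8.28 in old mApple ruxolitinib, old mApple vehicle and young mApple vehicle livers. Several libraries stood apart. The old Myc vehicle liver 870 had 6.85 CPM of Myc, in the range of mApple livers, and the old mApple vehicle liver 855 had 56.8 CPM, in the range of Myc livers. Kupffer and macrophage markers summed to 3778 CPM in the old Myc ruxolitinib liver 860 and to 2478 CPM in liver 861, and neutrophil markers summed to 622 CPM in the old mApple ruxolitinib liver 864. In 3 libraries the proteasome genes went against the batch label. Psmb5 had 71.1 and 62.9 CPM in the old Myc vehicle livers 870 and 871, labelled first batch, and 26.7 CPM in the young mApple vehicle liver 1134, labelled second batch, where the other 16 first-batch livers had 20.9 to 41.8 CPM and the other 39 second-batch livers 47.2 to 74.9 CPM. Psme2 likewise had 76.4, 64.1 and 27.5 CPM in livers 870, 871 and 1134, against 25.0 to 41.1 CPM in the other first-batch and 38.3 to 64.6 CPM in the other second-batch livers. Liver 1134 also had 4435 CPM of B2m, where the ranges were 1534 to 3483 CPM in the first batch and 900 to 2101 CPM in the second. The labels were kept, and whether these libraries belong to the labelled batch was not tested. Results of the 10 genes that rest on these libraries are given with and without them. Fits and correlations of other genes are given with them only. Hepatocyte markers such as Alb were high in all libraries, with sums of 50183 to 220011 CPM. These are bulk libraries, in which fewer cells of a type and less RNA per cell cannot be told apart.

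Per kilobase of exon, the 10 genes differed widely in level. Median CPM per exon kilobase over the 58 libraries was highest for the activator chains Psme1 (89.5) and Psme2 (52.6) and for Tapbp (50.1), the tapasin that bridges transporter and class I molecule. Erap1, the aminopeptidase that trims peptides in the endoplasmic reticulum, followed at 20.9. The induced catalytic subunits Psmb8, Psmb10 and Psmb9 stood at 17.7, 16.8 and 12.4, and the transporter subunits Tap2 and Tap1 at 10.7 and 9.69. Nlrc5 was lowest at 3.98.

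**Figure D1:**
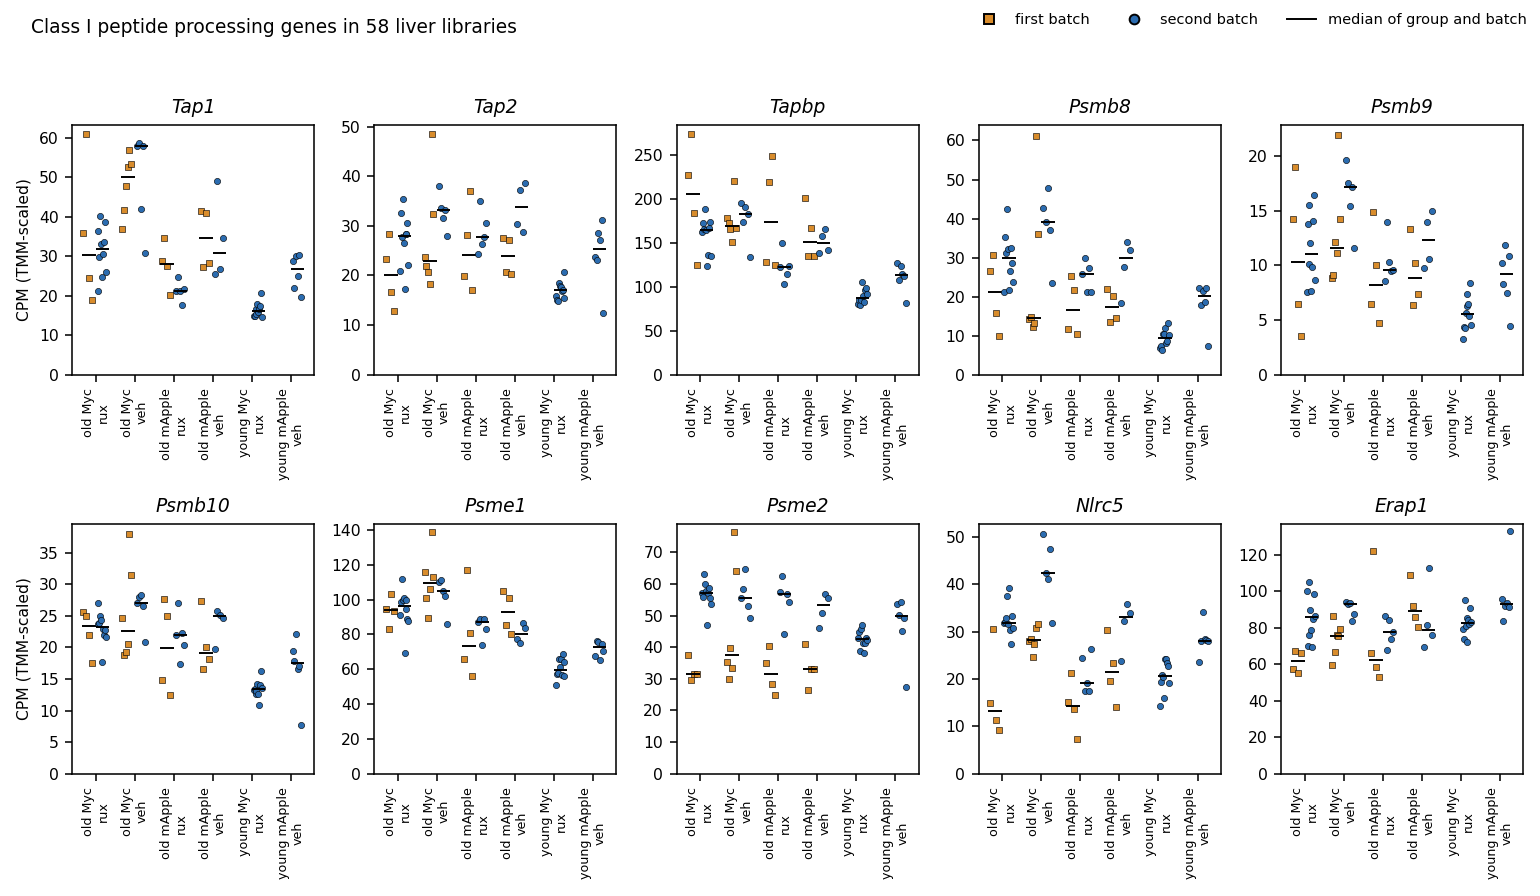
Level of each of the 10 genes (CPM, TMM-scaled) in each of the 58 libraries by group, with squares for the first batch, circles for the second and a bar at the median of each group and batch. Young Myc ruxolitinib livers sit lowest in the second batch for 8 of the 10 genes, with Psmb8 between 6.30 and 13.2 CPM, and the median of Psme2 is lower in the first batch than in the second in every old group, with the first-batch old Myc vehicle livers 870 and 871 as exceptions at 76.4 and 64.1 CPM.

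Order of the 6 groups was read from the second batch, which holds all of them, as a description. In the order old Myc ruxolitinib, old Myc vehicle, old mApple ruxolitinib, old mApple vehicle, young Myc ruxolitinib and young mApple vehicle, the medians of Tap1 were 31.8, 58, 21.3, 30.7, 16.3 and 26.8 CPM. In the same order, those of Psmb8 were 29.8, 39.2, 25.7, 29.8, 9.39 and 20.1 CPM. Tapbp medians were 165, 183, 122, 150, 87.5 and 113 CPM. Old Myc vehicle livers were thus highest and young Myc ruxolitinib livers lowest for each of these genes. Nlrc5 was ordered otherwise: its medians were 31.9, 42.4, 19.2, 33.1, 20.7 and 28.1 CPM, so that old mApple ruxolitinib livers were lowest. Erap1 hardly differed, with medians of 85.8, 93.2, 77.8, 79.0, 82.5 and 92.9 CPM. Old Myc vehicle livers had the highest median for 8 of the 10 genes, the exceptions being Tap2 (highest in old mApple vehicle, 33.8 CPM) and Psme2 (highest in old Myc ruxolitinib, 57.2 CPM). Young Myc ruxolitinib livers had the lowest median for 8, the exceptions being Nlrc5 and Erap1. For all 10 genes each group's range overlapped that of its neighbour in the order, which does not show that neighbours were alike: several were called different in the fits that follow, such as young Myc ruxolitinib and young mApple vehicle livers for Psmb8 and Tap2.

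Among mice that received Myc and ruxolitinib, old livers had more RNA than young livers for 9 of the 10 genes, in a comparison of 10 second-batch livers with 10. Against a background of 18.1% of 12760 tested genes called higher, and of 33.7% called in either direction, the 9 were all but Erap1. The median log2 fold change of the 10 was 0.73, where that of all genes tested was 0.02. Psmb8, the induced subunit that takes the place of Psmb5, had the lowest, median and highest values of 21.3, 29.8 and 42.5 CPM in old Myc ruxolitinib livers, against 6.30, 9.39 and 13.2 CPM in young Myc ruxolitinib livers. All 10 old livers lay above all young ones, and the log2 fold change was 1.66 ± 0.14 (SE, adjusted p = 5.84e-08). The partner subunits moved less: Psmb9, which takes the place of Psmb6, rose by 1.04 ± 0.18 (adjusted p = 0.00016) and Psmb10, which takes the place of Psmb7, by 0.78 ± 0.07 (adjusted p = 1.1e-07). Psmb9 had 7.60, 11 and 16.4 CPM in old livers, against 3.29, 5.53 and 8.36 CPM in young ones, and 8 of the 10 old livers lay above every young one.

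The transporter and the loading bridge rose in the same livers. Tap1 had 21.1, 31.8 and 40.1 CPM in old Myc ruxolitinib livers, against 14.7, 16.3 and 20.7 CPM in young Myc ruxolitinib livers, without overlap (log2 fold change 0.92 ± 0.10, adjusted p = 2.22e-06). Tap2, the other subunit of the transporter, rose by 0.66 ± 0.11 (adjusted p = 8.43e-05), with 9 of 10 old livers above every young one. Tapbp had 123, 165 and 188 CPM in old livers, against 79.2, 87.5 and 105 CPM in young ones, again without overlap (0.83 ± 0.08, adjusted p = 1.78e-07). Among the activator chains, which open the proteasome's gate when induced, Psme1 rose by 0.64 ± 0.07 (adjusted p = 1.3e-06) and Psme2 by 0.41 ± 0.05 (adjusted p = 4.22e-06). The ranges of Psme1 were 69.6 to 112 CPM in old livers and 51.2 to 68.8 CPM in young ones, so the groups were separate by a narrow margin. Nlrc5 had 27.5, 31.9 and 39.2 CPM in old livers, against 14.3, 20.7 and 24.2 CPM in young ones, and rose by 0.67 ± 0.09 (adjusted p = 9.87e-06). Erap1 had 69.5, 85.8 and 105 CPM in old livers and 72.4, 82.5 and 95.4 CPM in young ones, and its difference of 0.05 ± 0.08 did not pass (adjusted p = 0.642). In all, 7 of the 10 genes had old livers wholly above young ones, a pattern found in 1.71% of the 8545 genes with a mean level at or above that of the lowest of the 10.

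The 9 calls were made again by each of 26 alternatives, which comprised other scalings, tools and filters and the omission of each library in turn. Genes around the 10 moved unevenly in this comparison. All 9 class I molecules tested rose (median 1.13), among them the heavy chain H2-D1 (1.15 ± 0.08, adjusted p = 4.03e-09) and the light chain B2m (0.68 ± 0.08). Reads of the H2 heavy chains can be shared between close copies, so single members of that family are uncertain. Of 13 genes for interferon signalling and its factors 10 rose, among them Irf9 (1.30 ± 0.15, adjusted p = 3.53e-06) and Irf1 (0.58 ± 0.09). The standing catalytic subunits stayed near 0, Psmb5 at 0.07 ± 0.06 and Psmb7 at -0.01 ± 0.05, and Psmb6 rose by 0.22 ± 0.05 (adjusted p = 0.00408). Other proteasome activators fell, Psme4 by 0.50 ± 0.08 and Psme3 by 0.32 ± 0.07, as did 5 of 7 genes on a list of peptidases. Of 7 loading chaperones, 1 rose (Tapbpl, 0.36 ± 0.07), and 4 fell, among them Uggt1 (-0.50 ± 0.10) and Canx (-0.30 ± 0.07).

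Markers of other cells also differed between these groups. B cell and plasma cell markers summed to 3.64, 9.66 and 19.3 CPM (lowest, median, highest) in old Myc ruxolitinib livers, against 2.13, 2.52 and 4.54 CPM in young Myc ruxolitinib livers, and the 3 of 6 that passed the filter on low counts all rose. Neutrophil markers summed to 4.27, 6.90 and 17.8 CPM in old livers and to 2.07, 3.12 and 5.26 CPM in young ones, and both that were tested rose. Hepatocyte markers summed to 90641, 106749 and 143115 CPM in old livers and to 78620, 87378 and 106026 CPM in young ones, with 2 of 8 higher and 2 lower. T cell and NK markers summed to 1.02, 4.54 and 12.7 CPM in old livers and to 2.14, 2.95 and 3.32 CPM in young ones. Kupffer and macrophage markers summed to 142, 223 and 371 CPM in old livers and to 125, 209 and 304 CPM in young ones, and 1 of 8 (Cd5l) rose. Of 6 sinusoidal endothelial markers 4 fell, and the sums were 89.6, 176 and 237 CPM in old livers and 170, 241 and 302 CPM in young ones. The leukocyte gene Ptprc had 5.46, 10.8 and 21.9 CPM in old livers and 6.13, 8.92 and 11.8 CPM in young ones. No marker list was wholly at 0 in either group, and the part of these cells in the result was not tested. Myc itself was lower in old Myc ruxolitinib livers than in young ones by 0.70 ± 0.10 (adjusted p = 3.33e-05), and the part of that difference was not tested either.

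In young mice, livers with Myc and ruxolitinib had less RNA than livers with mApple and vehicle for 8 of the 10 genes, where 14.0% of 12808 genes tested were called lower and 27.5% in either direction. The same young Myc ruxolitinib libraries serve in this comparison and in the preceding one, so that their values enter both. Psmb8 had 6.30, 9.39 and 13.2 CPM in the 10 young Myc ruxolitinib livers, against 7.36, 20.1 and 22.3 CPM in the 6 young mApple vehicle livers. Liver 1134 was the low one among the mApple vehicle livers, and the other 5 had 17.8 to 22.3 CPM, above every Myc ruxolitinib liver. The log2 fold change of Psmb8 was -0.98 ± 0.19 (adjusted p = 0.000821), and -1.14 ± 0.14 without liver 1134 (adjusted p = 7.76e-06). Psmb9 fell by 0.67 ± 0.20 (adjusted p = 0.0165), a call that was lost without the young mApple vehicle liver 1131 (-0.57, adjusted p = 0.0525).

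Tap1 had 14.7, 16.3 and 20.7 CPM in young Myc ruxolitinib livers and 19.6, 26.8 and 30.4 CPM in young mApple vehicle livers, with 9 of 10 treated livers below every control (log2 fold change -0.66 ± 0.10, adjusted p = 7.59e-05). Tap2 fell by 0.53 ± 0.13 (adjusted p = 0.00646) and Tapbp by 0.32 ± 0.09 (adjusted p = 0.00963). Psme1 had 51.2, 59.6 and 68.8 CPM in young Myc ruxolitinib livers and 65.6, 72.7 and 76.5 CPM in young mApple vehicle livers, 7 of 10 treated livers being below every control (-0.25 ± 0.07, adjusted p = 0.00955). Nlrc5 ranged from 14.3 to 24.2 CPM in the treated livers and from 23.7 to 34.2 CPM in the controls, and fell by 0.47 ± 0.11 (adjusted p = 0.00263). Erap1 fell by 0.25 ± 0.09 (adjusted p = 0.0432), which rests most on liver 1134 with 133 CPM: without it the difference was -0.14 (adjusted p = 0.104), and leaving out any of 10 other single livers also ended the call (-0.22 to -0.26). Conversely, Psmb10 (-0.33 ± 0.15, adjusted p = 0.102) and Psme2 (-0.14 ± 0.11, adjusted p = 0.351) did not pass with liver 1134, and passed without it at -0.48 (adjusted p = 0.000343) and -0.25 (adjusted p = 0.00268). Without that liver 9 of the 10 were called lower.

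These calls depended on the scaling. With library totals in place of TMM, which moved the median log2 fold change of all genes tested to 0.16, against -0.01 with TMM, 3 of the 10 genes were called lower, namely Tap1 (-0.48), Psmb8 (-0.81) and Nlrc5 (-0.29), and Psme2 was at 0.03. In the TMM fit, all 9 class I molecules fell (median -0.59), among them B2m (-0.98 ± 0.19) and H2-Q4 (-0.79 ± 0.12). The size of the B2m difference rests in part on liver 1134, with 4435 CPM, and was not computed without it. The other young mApple vehicle livers had 1406 to 1660 CPM of B2m, and young Myc ruxolitinib livers 900 to 1137 CPM. The interferon factors fell in 8 of 13 cases, led by Irf9 (-1.53 ± 0.09, adjusted p = 2.29e-09) and Stat2 (-0.77 ± 0.08), while Ifngr1, which encodes a chain of the interferon gamma receptor, was at 0.00 ± 0.10. None of the 3 standing catalytic subunits was called by edgeR (Psmb5 0.21 ± 0.13, Psmb6 -0.03 ± 0.11, Psmb7 0.06 ± 0.08), at an adjusted or an unadjusted p. Hepatocyte markers summed to 78620, 87378 and 106026 CPM in young Myc ruxolitinib livers, against 121505, 134302 and 211085 CPM in young mApple vehicle livers, without overlap, and 4 of 8 fell. T cell and NK markers summed to 2.14, 2.95 and 3.32 CPM in young Myc ruxolitinib livers and to 5.37, 5.66 and 9.40 CPM in young mApple vehicle livers, also without overlap. B cell and plasma cell markers summed to 2.13, 2.52 and 4.54 CPM in young Myc ruxolitinib livers and to 2.85, 3.94 and 7.85 CPM in young mApple vehicle livers. Kupffer and macrophage markers, with medians of 209 CPM in young Myc ruxolitinib livers and 201 CPM in young mApple vehicle livers, overlapped widely. The part of these cells in the result was not tested.

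**Figure D2:**
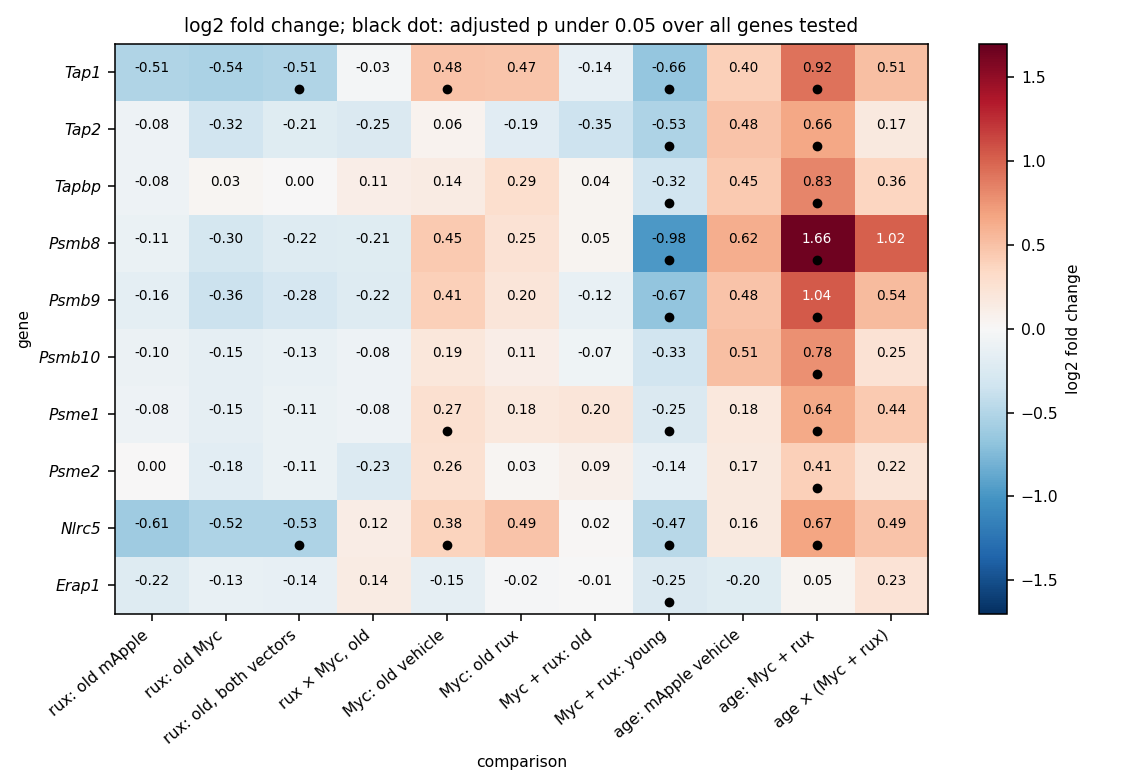
Log2 fold change of each of the 10 genes (vertical axis) in the 11 comparisons (horizontal axis), with a black dot where the adjusted p was under 0.05 over all genes tested. Dots are found for 9 genes with age under Myc and ruxolitinib, for 8 with Myc and ruxolitinib in young livers, for 3 with Myc in old vehicle livers and for 2 with ruxolitinib over both vectors in old livers.

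Between old and young mice with mApple and vehicle, 4 second-batch livers were compared with 6, and none of the 10 genes was called by edgeR, where 0.859% of 13155 genes were called higher and 1.10% in either direction. At an unadjusted p under 0.05, 4 of the 10 passed (Tap2, Tapbp, Psmb8 and Psmb10), as did 2337 of the 13155 genes. DESeq2 and limma voom each called 1, Tapbp. Tapbp had 138, 158, 166 and 142 CPM in the 4 old mApple vehicle livers, against 81.9, 113 and 127 CPM (lowest, median, highest) in the 6 young mApple vehicle livers. The ranges did not overlap, a pattern seen in 1.78% of 7980 genes, and the log2 fold change was 0.45 ± 0.13 (adjusted p = 0.106). Psmb8 had 18.4, 27.6, 34.1 and 32.0 CPM in the old mApple vehicle livers, against 7.36, 20.1 and 22.3 CPM in the young ones, with 3 of 4 old livers above every young one (0.62 ± 0.26, adjusted p = 0.242). Without liver 1134 the difference of Psmb8 was 0.45 ± 0.16 (adjusted p = 0.168). Nlrc5 was at 0.16 ± 0.13 and Erap1 at -0.20 ± 0.16. Some immune cell markers were higher in the same old livers. The 3 neutrophil markers tested all rose (S100a8 2.67 ± 0.46, adjusted p = 0.0204), as did Jchain (2.79 ± 0.33, adjusted p = 0.00534) and Cd8a (2.88 ± 0.59, adjusted p = 0.042). Of 12 T cell and NK markers 4 were tested, and Cd4 was at -0.74 ± 0.30 (adjusted p = 0.222). That list summed to 5.91, 10.2 and 15.9 CPM in the old livers and to 5.37, 5.66 and 9.40 CPM in the young ones, with overlap. Of 3 dendritic cell markers tested, 2 were below 0. Neutrophil markers summed to 11.4, 12.6 and 28.9 CPM in old mApple vehicle livers and to 2.84, 4.22 and 6.30 CPM in young ones, without overlap. All 8 Kupffer and macrophage markers had estimates above 0 (median 0.88), none of them called, and the part of these cells was not tested.

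Whether the age difference was larger under Myc and ruxolitinib than under mApple and vehicle was tested as an interaction over these 4 groups, in 30 second-batch libraries. All 10 estimates were above 0 (median 0.40, with 0.01 for all genes), and edgeR called none of them, where 0.287% of 13609 genes were called. The largest was that of Psmb8 at 1.02 ± 0.29 (adjusted p = 0.101), followed by Psmb9 at 0.54, Tap1 at 0.51 ± 0.21 and Nlrc5 at 0.49 ± 0.16. At an unadjusted p under 0.05, 5 of the 10 passed, as did 1914 of the 13609 genes. DESeq2 called 2 (Psmb8 and Psme1), and limma voom with quality weights, which gives less weight to libraries that fit poorly, called 8. The share of 0.287% is that of edgeR alone, and the shares of all genes called by DESeq2 and limma voom are not given here. Psmb8 also passed without liver 1134 (1.2, adjusted p = 0.0204), and Psme1 without the old Myc ruxolitinib liver 1154 (0.48, adjusted p = 0.0258). Outside the 10, edgeR called H2-T22 (0.73 ± 0.16, adjusted p = 0.0402), H2-K1 (0.61 ± 0.14, adjusted p = 0.048) and Irf9 (1.14 ± 0.26, adjusted p = 0.0495) higher in this interaction. Other class I molecules were above 0 and other interferon genes lay on both sides of it, none called. The endothelial marker Kdr was called lower (-1.33 ± 0.30, adjusted p = 0.0491), and the part of such cells was not tested. In old mice alone, 10 second-batch livers with Myc and ruxolitinib were compared with 4 with mApple and vehicle. The 4 first-batch livers of each group were not used. None of the 10 genes was called by edgeR, where 10.9% of 13761 genes were called. At an unadjusted p under 0.05, 1 (Tap2) passed, as did 3848 of the 13761 genes. DESeq2 called 0 of the 10 and limma voom called 1. Without liver 1154, Psme1 was called there (0.24, adjusted p = 0.0443). The estimates lay between -0.35 (Tap2) and 0.20 (Psme1).

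Ruxolitinib in old livers was accompanied by lower Tap1 and Nlrc5. In old mApple livers neither was called, and none of the 10 was by edgeR, DESeq2 or limma voom, where edgeR called 0.384% of 13554 genes lower and 0.391% in either direction. At an unadjusted p under 0.05, the 2 genes Tap1 and Nlrc5 passed, as did 1327 of the 13554 genes. In the second batch Tap1 had 21.2, 24.8, 21.3, 17.6 and 21.8 CPM in old mApple ruxolitinib livers, against 25.5, 49.0, 26.7 and 34.7 CPM in old mApple vehicle livers, so that all 5 treated livers lay below all 4 controls. In the first batch it had 28.7, 34.5, 27.5 and 20.1 CPM in old mApple ruxolitinib livers, against 41.4, 27.3, 40.9 and 28.2 CPM in old mApple vehicle livers, which overlap. Over both batches the ranges of Tap1 overlapped, where 0.148% of 8086 genes had all treated livers below all controls. That share is not given here for the second batch alone. The log2 fold change of Tap1 over both batches was -0.51 ± 0.15 (adjusted p = 0.214). Nlrc5 had 24.5, 17.5, 19.2, 17.4 and 26.4 CPM in second-batch old mApple ruxolitinib livers, against 23.9, 32.2, 35.9 and 34.0 CPM in old mApple vehicle livers (-0.61 ± 0.18 over both batches, adjusted p = 0.225). In that batch 3 of the 5 treated livers lay below every control.

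In old Myc livers edgeR called none of the 10, where 0.502% of 13749 genes were called lower and 0.545% in either direction. Of the 10, 3 (Tap1, Tap2 and Nlrc5) passed at an unadjusted p under 0.05, as did 1925 of the 13749 genes. DESeq2 called 1 and limma voom 3. Tap1 had 21.1, 31.8 and 40.1 CPM in the 10 second-batch old Myc ruxolitinib livers, and 58, 58.7, 41.9, 58 and 30.8 CPM in the 5 old Myc vehicle livers. In the vehicle group 4 of 5 livers lay above every treated one. In the first batch it had 36.0, 60.9, 24.4 and 18.8 CPM in old Myc ruxolitinib livers, and 37.0 to 56.8 CPM in the 6 old Myc vehicle livers. The highest treated value there is that of liver 861, 1 of the pair with high Kupffer and macrophage markers. Over both batches the log2 fold change of Tap1 was -0.54 ± 0.16 (adjusted p = 0.158) and that of Nlrc5 -0.52 ± 0.14 (adjusted p = 0.103). Without livers 860 and 861 both passed, Tap1 at -0.79 ± 0.14 (adjusted p = 0.00506) and Nlrc5 at -0.67 ± 0.13 (adjusted p = 0.0111). Leaving out liver 861 alone gave -0.71 for Tap1 (adjusted p = 0.00847) and -0.67 for Nlrc5 (adjusted p = 0.00757).

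Fitted over both vectors in the 42 old livers, the drug comparison called Tap1 (-0.51 ± 0.11, adjusted p = 0.0047) and Nlrc5 (-0.53 ± 0.11, adjusted p = 0.00333) lower and none of the other 8, where 1.40% of 13904 genes were called lower and 2.25% in either direction. Both remained called when any single library was left out, and without livers 870 and 871 (Tap1 -0.50, Nlrc5 -0.52). With library totals Tap1 lost its call (-0.43, adjusted p = 0.0692), and with no batch term Nlrc5 did (-0.40, adjusted p = 0.232). Within batches, Tap1 was at -0.35 ± 0.19 in the first (adjusted p = 0.206) and at -0.68 ± 0.13 in the second (adjusted p = 0.00612), and Nlrc5 was at -0.66 ± 0.22 in the first (adjusted p = 0.0516) and at -0.48 ± 0.09 in the second (adjusted p = 0.00493). The remaining members had smaller estimates, from -0.28 ± 0.15 for Psmb9 (adjusted p = 0.332) and -0.22 for Psmb8 to 0.00 for Tapbp; without livers 870 and 871 Psmb8 was at -0.04. Of the 9 class I molecules none was called by edgeR in any of these 3 drug comparisons, B2m being at -0.16 ± 0.09 over both vectors. Of the 13 genes for interferon signalling and its factors 3 were called lower and none higher, with a median of -0.01: Irf9 fell by 1.15 ± 0.13 (adjusted p = 1.61e-07) and Stat2 by 0.57 ± 0.08 (adjusted p = 2.91e-06), whereas Irf1, at -0.23 ± 0.09 (adjusted p = 0.131), and Ifngr1, at 0.45 ± 0.14 (adjusted p = 0.0749), did not pass. No marker of the 10 lists of cell types was called; those of Kupffer cells and macrophages had a median of 0.31, those of neutrophils 0.83 and those of hepatocytes -0.18, and their part in the result was not tested. No difference between the drug's effects under the 2 vectors was called for any of the 10 by edgeR, DESeq2 or limma voom, and 0 passed at an unadjusted p under 0.05. Of 14046 genes edgeR called 0% for this difference, with 735 at an unadjusted p under 0.05. The difference was -0.03 for Tap1 and 0.12 for Nlrc5.

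Myc in old vehicle livers was accompanied by higher Tap1, Psme1 and Nlrc5, 3 of the 10, where 10.8% of 13547 genes were called higher and 18.8% in either direction. Tap1 had 58, 58.7, 41.9, 58 and 30.8 CPM in second-batch old Myc vehicle livers, against 25.5, 49.0, 26.7 and 34.7 CPM in old mApple vehicle livers. In the first batch, 5 of the 6 old Myc vehicle livers lay above all 4 old mApple vehicle livers, with 37.0, 50.1 and 56.8 CPM (lowest, median, highest) in old Myc vehicle livers, against 41.4, 27.3, 40.9 and 28.2 CPM in old mApple vehicle livers. The log2 fold change of Tap1 was 0.48 ± 0.15 (adjusted p = 0.0255). Psme1 had 110, 111, 105, 102 and 86.1 CPM in second-batch old Myc vehicle livers, against 77.2, 75.2, 86.4 and 83.8 CPM in old mApple vehicle livers, with 4 of 5 above every control (0.27 ± 0.08, adjusted p = 0.0241). Nlrc5 had 50.6, 42.4, 41.2, 47.4 and 31.9 CPM in second-batch old Myc vehicle livers, against 23.9, 32.2, 35.9 and 34.0 CPM in old mApple vehicle livers (0.38 ± 0.12, adjusted p = 0.0267). Of these too 4 of 5 lay above every control.

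These 3 calls were close to the threshold. Within the first batch Tap1 was at 0.47 ± 0.16, Psme1 at 0.23 ± 0.13 and Nlrc5 at 0.36 ± 0.17, and within the second at 0.52 ± 0.24, 0.33 ± 0.09 and 0.42 ± 0.15, with no call in either. Without the old mApple vehicle liver 855, whose Myc level was in the range of Myc livers, Psme1 alone was called (0.26, adjusted p = 0.0489), and without liver 870 all 3 were. Leaving out the old mApple vehicle liver 1135 also left 1 call, and leaving out liver 863 of the same group left none. Psmb9 (0.41 ± 0.17, adjusted p = 0.0972) and Psmb8 (0.45 ± 0.26, adjusted p = 0.239) did not pass. The value of Psmb8 rests on livers 870 and 871, with 61.2 and 36.1 CPM where the other 4 first-batch old Myc vehicle livers had 12.3 to 14.9 CPM: without them it was 0.06 ± 0.17. The 3 calls were made without that pair too, at 0.44 for Tap1 (adjusted p = 0.049), 0.23 for Psme1 (adjusted p = 0.0345) and 0.36 for Nlrc5 (adjusted p = 0.046). The proteasome's assembly chaperones rose in the same comparison, with 4 of 8 genes for other activators and assembly called (Psmg1 0.50, Psmg2 0.52 and Psmg3 0.74 with the smallest p), as did the cytosolic peptidase Thop1 (1.07 ± 0.16, adjusted p = 0.000131). None of the 9 class I molecules was called by edgeR. Of the interferon list 3 of 13 fell (Jak1 -0.27, Jak2 -0.23 and Irf2 -0.32). Markers of other cells moved too: 5 of 6 sinusoidal endothelial markers fell (Kdr -0.54 ± 0.11, adjusted p = 0.00275), as did 4 of 8 hepatocyte markers (Alb -0.60 ± 0.13, adjusted p = 0.00269) and 1 of 6 stellate markers (Des -0.38 ± 0.12). In the second batch the hepatocyte markers summed to 86003, 102983 and 124020 CPM in old Myc vehicle livers, against 123921, 139498 and 153116 CPM in old mApple vehicle livers. The part of these cells in the result was not tested.

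Under ruxolitinib, Myc against mApple in old livers gave no call among the 10 by edgeR, where 8.40% of 14010 genes were called higher and 14.4% in either direction. Tap1, Tapbp and Nlrc5 passed at an unadjusted p under 0.05, as did 4146 of the 14010 genes. DESeq2 called 2 of the 10 and limma voom 4. Nlrc5 had 27.5, 31.9 and 39.2 CPM in the 10 second-batch old Myc ruxolitinib livers, against 24.5, 17.5, 19.2, 17.4 and 26.4 CPM in old mApple ruxolitinib livers, without overlap in that batch. In the first batch its values of 15.0, 30.5, 11.4 and 9.32 CPM in old Myc ruxolitinib livers overlapped those of 15.1, 21.2, 13.6 and 7.26 CPM in old mApple ruxolitinib livers. With both batches its ranges overlapped, where 0.22% of 8166 genes had all Myc livers above all mApple livers. That share is not given here for the second batch alone. Over both batches Nlrc5 was at 0.49 ± 0.18 (adjusted p = 0.075) and Tap1 at 0.47 ± 0.16 (adjusted p = 0.0553). In the second batch alone 3 were called higher, Nlrc5 at 0.65 ± 0.11 (adjusted p = 0.00201), Tap1 at 0.56 ± 0.14 (adjusted p = 0.0197) and Tapbp at 0.38 ± 0.11 (adjusted p = 0.039). The 8.40% is for both batches, and the share of all genes called in the second alone is not given here. Over both batches, leaving out the old mApple ruxolitinib liver 857 gave 3 calls, the old Myc ruxolitinib livers 868 or 869 gave 2 each, and liver 1149 gave 1, while none was left without livers 860, 861, 864 and 865 (Tap1 0.30, Nlrc5 0.32). Of the 13 interferon genes 1 was called, Irf9 (0.67 ± 0.18, adjusted p = 0.0178), and of the 9 class I molecules 0. All 8 Kupffer and macrophage markers were above 0 (median 0.78), none called. Called lower were 2 of 6 sinusoidal endothelial, 2 of 8 hepatocyte and 1 of 5 cholangiocyte markers. The part of these cells in the result was not tested.

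The exchange of catalytic subunits was followed by the ratio of each induced subunit to the standing one it replaces, per exon kilobase within a library, which does not depend on how libraries are scaled. Psmb8 stood at 21.1, 32.6 and 44.4% of Psmb5 in second-batch old Myc ruxolitinib livers, against 7.86, 9.88 and 16.1% in young Myc ruxolitinib livers. The mean log2 ratio was higher by 1.59 in the old livers, with no overlap (exact permutation test, two-sided, p = 1.08e-05, the smallest that the permutations can give; adjusted p = 0.00026 over 24 tests of 3 ratios in 8 comparisons). For Psmb10 to Psmb7 the medians were 16.6% in old Myc ruxolitinib livers and 9.46% in young ones (difference 0.79, exact permutation p = 2.17e-05, adjusted p = 0.00026). For Psmb9 to Psmb6 they were 17.4% and 9.87% in the same groups (difference 0.82, exact permutation p = 0.00165, adjusted p = 0.00987). All 3 ratios were thus higher in the old livers of mice with Myc and ruxolitinib, that of Psmb8 the most.

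In young livers the ratio of Psmb8 to Psmb5 was 7.86, 9.88 and 16.1% with Myc and ruxolitinib and 19.7, 23.7 and 28.3% with mApple and vehicle. Here the groups did not overlap even with liver 1134, whose ratio was 19.7%: both Psmb8 and Psmb5 were low in it (difference -1.18, exact permutation p = 0.000125, the smallest that the permutations can give; adjusted p = 0.000999). Psmb9 to Psmb6 had medians of 9.87% with Myc and ruxolitinib and 15.8% with mApple and vehicle (difference -0.65, exact permutation p = 0.00687, adjusted p = 0.033). For Psmb10 to Psmb7 the difference of -0.33 did not pass (exact permutation p = 0.0305, adjusted p = 0.0914), and without liver 1134 it was -0.47 (exact permutation p = 0.00133, not adjusted). With age in mApple vehicle livers the differences were 0.52 for Psmb8 to Psmb5 (exact permutation p = 0.0286, adjusted p = 0.0914), 0.38 for Psmb9 to Psmb6 and 0.64 for Psmb10 to Psmb7 (exact permutation p = 0.0238, adjusted p = 0.0914), none of which passed.

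None of the 15 ratio tests among old livers passed either, with differences from -0.39 (Psmb9 to Psmb6, old Myc ruxolitinib against old Myc vehicle, permutation p = 0.154) to 0.34 (Psmb9 to Psmb6, old Myc vehicle against old mApple vehicle, exact permutation p = 0.0775). The first of these rests on livers 860 and 861, in which Psmb9 was 41.8% and 57.7% of Psmb6, while the highest of the other old Myc ruxolitinib livers was at 29.4%. Without that pair the difference was -0.79 (permutation p = 0.00137, not adjusted), and for Psmb8 to Psmb5 it was -0.45 (permutation p = 0.0137, not adjusted). Both livers had leukocyte Ptprc at 119 and 99.6 CPM, where the second-batch livers of their group had 5.46 to 21.9 CPM, and the part of such cells in the ratio was not tested.

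**Figure D3:**
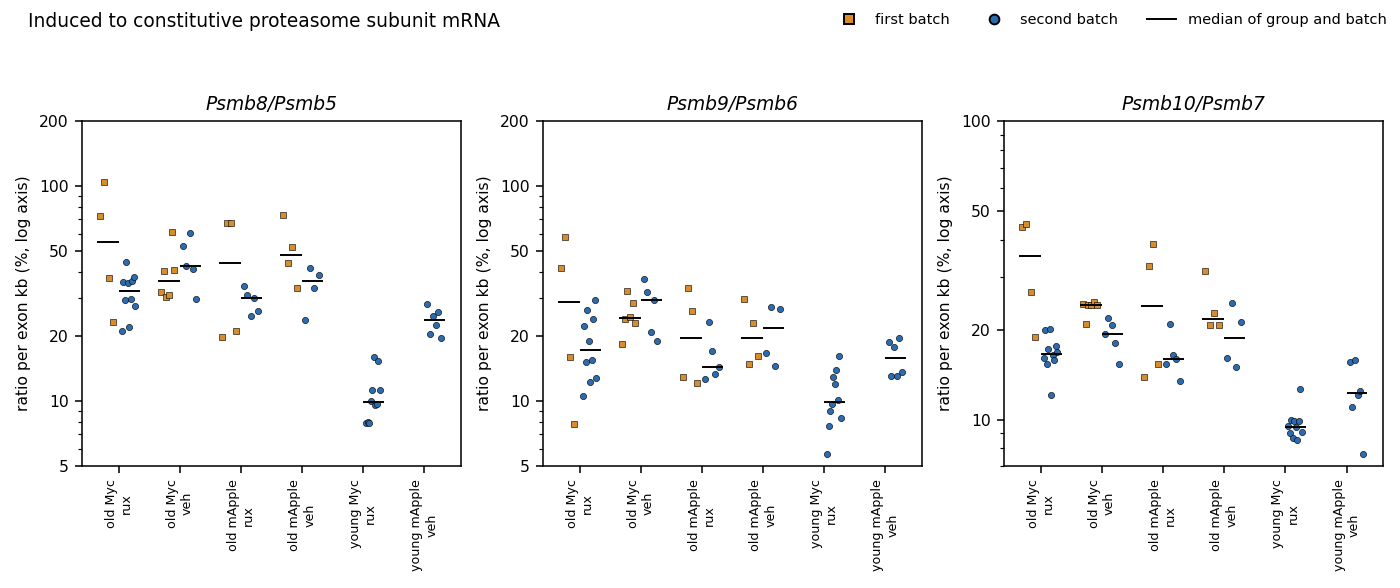
Level of each induced proteasome subunit as a percentage of the standing subunit it replaces, per exon kilobase on a log axis, in each library by group, with squares for the first batch, circles for the second and a bar at each median. Young Myc ruxolitinib livers had Psmb8 at 7.86 to 16.1% of Psmb5, below all 10 old Myc ruxolitinib livers of the second batch (21.1 to 44.4%) and all 6 young mApple vehicle livers (19.7 to 28.3%).

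How far the 10 genes vary together from liver to liver was described after the mean of each group and batch had been removed from log2(CPM + 1), over 58 libraries that share groups, batches and scaling. Pearson r between pairs had a median of 0.55 over the 45 pairs, and 27 were above 0.5. The highest were those of Tap2 with Psmb8 (0.87) and of Tap1 with Psmb9 (0.86). The models of Tap1 and Psmb9 overlap on opposite strands in GENCODE M21, by 209 bases of Tap1 exon, and counting without strand can pass reads from either gene to the other. Against the mean of the other 9, r was 0.89 for Psmb8 and for Psmb9, 0.85 for Tap2, 0.84 for Tapbp, 0.83 for Psmb10 and 0.75 for Tap1. It was lower for Psme2 (0.65), Psme1 (0.61) and Nlrc5 (0.59), and Erap1 hardly varied with the rest (0.19). The only pair below 0 was Tap2 with Erap1 (-0.05). Without livers 870, 871 and 1134, over 55 libraries, the median over pairs was 0.54 and none was below 0.07. Against the mean of the others, Psme2 was then at 0.50, Nlrc5 at 0.66 and Erap1 at 0.35.

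**Figure D4:**
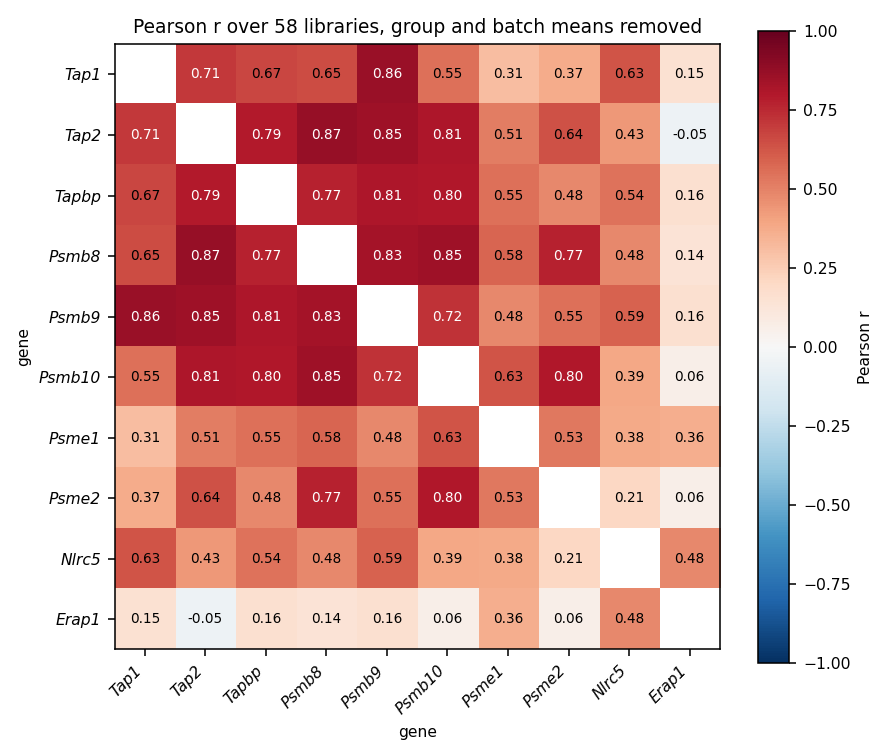
Pearson r between the levels of each pair of the 10 genes over 58 libraries, with the mean of each group and batch removed, genes on both axes. The 6 genes from Tap1 to Psmb10 form a block of values from 0.55 to 0.87, and the row of Erap1 runs from -0.05 to 0.48.

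Outside the 10, the genes whose levels were most like their mean, among 11758 ranked, were the class I genes H2-D1 (r = 0.87), H2-Q4 (0.86), H2-L (0.83), H2-T10 (0.79) and H2-Q8 (0.78). In the second batch alone that of H2-T10 was 0.55. H2-K1 had 0.73 and Irf1 0.61, while the light chain B2m had -0.04 and the standing subunits Psmb5, Psmb6 and Psmb7 had 0.24, 0.25 and 0.11. For these genes r was not computed without livers 870, 871 and 1134. Those livers had 1912, 1671 and 4435 CPM of B2m, where the mean log2(CPM + 1) of the 10 genes was 5.97, 5.66 and 4.60. The value of B2m may thus rest on them. The macrophage gene Clec4f (0.62) and the leukocyte gene Ptprc (0.53) were positive, and the hepatocyte gene Alb (-0.43) and the vector's Myc (-0.43) were negative. These values describe how levels go together within groups, and the part of cell composition in them was not tested.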

How the data were processed

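RNA was extracted with trizol, selected for polyA tails, made into libraries with a Watchmaker kit and sequenced on an Element AVITI instrument as 2 x 75 bases, per the labels' protocols. STAR, HOMER and GRCm38 (mm10) are named in the submitters' processing notes, with versions not given in the sources used here. The authors deposited 1 table of estimated counts per gene for 58 libraries and 24537 genes; 29.9% of the values were not whole, in steps of 0.5, and were rounded to whole counts. No strand setting is stated. Library totals were 10.68 to 40.98 M, and intervals of the fits cover the spread between libraries.

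Each of 11 comparisons was fitted with edgeR 4.0.16 (R 4.3.3; TMM, filterByExpr with a minimum count of 10, quasi-likelihood test, sequencing batch as a term where both batches were present), with Benjamini-Hochberg adjustment over all genes tested and a threshold of 0.05. The SE of a log2 fold change was its size divided by the square root of F. Levels are CPM scaled by TMM over all libraries. Ratios used (count + 0.5) per exon kilobase and a permutation test within batches, exact up to 200000 arrangements and otherwise with 100000 draws. Likeness was Pearson r of log2(CPM + 1) after centring by group and batch. Alternatives were library totals, RLE factors, DESeq2 1.42.0, limma 3.58.1 voom, no filter, 1 fit of all libraries, no batch term, each batch alone and each library left out. Leaving out livers that stood apart (860, 861, 864, 865, 870, 871 and 855, and 1134 for correlations and ratios) was chosen after seeing the data. The fitting steps were tested on simulated data. Python 3.11.15, pandas 2.3.3, numpy 2.4.6, scipy 1.17.1 and matplotlib 3.10.9 were used.

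All 10 genes are named throughout, together with Psmb5, Psmb6, Psmb7, Irf1, B2m, Ifngr1 and Myc, up to 3 genes with the smallest p from each of 9 pathway lists, and the 5 other genes most like the 10; 1 further gene of that rule is not reported here. Markers of other cells came from 10 lists and are given as sums. The members and lists were chosen with earlier results of these data known.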

Additional observations from a re-analysis of the deposited data

Results flagged for a closer look

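In 3 of the 40 gene and group combinations examined, the young mApple vehicle liver 1134 lay far from the other 5 of its group. Its Psmb8 level was 7.36 CPM, where the next lowest was 17.8 CPM. Its Psme2 level was 27.5 CPM, where the next lowest was 45.3 CPM. Its Erap1 level was 133 CPM, where the next highest was 95.8 CPM. Liver 1134 was also lowest for Tap2, Psmb10 and Tapbp, at 12.5, 7.64 and 81.9 CPM, where the next lowest were 23.1, 16.5 and 108 CPM. These were not among the combinations marked. In 1 further combination, the old mApple ruxolitinib liver 857 had 122 CPM of Erap1, where the next highest of its group had 86.3 CPM. Chance alone marks about 1 in 20 groups in this way. The 40 combinations do not cover every gene in every group. Those of 1 group share the same libraries, so they are not independent.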

How the results depend on the processing

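The number of the 10 genes called was 9 for age under Myc and ruxolitinib under each alternative run and with any single library left out (9 to 9). For Myc with ruxolitinib in young livers it was 8, and 3 with library totals, 4 in 1 fit of all libraries and 7 to 9 with single libraries left out. For ruxolitinib over both vectors in old livers it was 2, and 1 with library totals, 1 with no batch term, 0 in the first batch alone and 2 to 2 with single libraries left out. For Myc in old vehicle livers it was 3, and 5 with library totals, 1 with no batch term, 0 in the first and 0 in the second batch alone, 1 without liver 855 and 0 to 3 with single libraries left out. For ruxolitinib in old Myc livers it was 0, and 1 with DESeq2, 3 with limma voom, 2 in 1 fit of all libraries, 2 without livers 860 and 861, and 0 to 2 with single libraries left out, the call being made without liver 861. For Myc in old ruxolitinib livers it was 0, and 2 with library totals, 2 with DESeq2, 4 with limma voom, 2 in 1 fit of all libraries, 3 in the second batch alone and 0 to 3 with single libraries left out. For Myc with ruxolitinib in old livers it was 0, and 1 with limma voom and 0 to 1 with single libraries left out. For age in mApple vehicle livers it was 0, and 1 with DESeq2, 1 with limma voom and 0 to 0 with single libraries left out. For the difference between the age effects it was 0, and 2 with DESeq2, 8 with limma voom and 0 to 1 with single libraries left out. For ruxolitinib in old mApple livers, and for the difference between the drug's effects, it was 0 to 0 with single libraries left out. The shares of all genes called under these alternatives are not given here, and the cause of these changes was not tested.

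Of the single log2 fold changes under these alternatives, 3491 kept their side of the threshold, 54 passed it newly and 45 lost it, and no called value changed sign. Library totals moved the median of all genes tested to 0.12 and 0.13 in the comparisons of Myc in old vehicle and old ruxolitinib livers, and to 0.11 for ruxolitinib in old mApple livers. Of the ratios 495 kept their side, 4 passed newly and 2 no longer did, by p not adjusted; the 2 are those of Psmb8 to Psmb5 (0.47) and Psmb10 to Psmb7 (0.51) with age in mApple vehicle livers, without liver 1134. Without livers 870 and 871 the number of genes called changed in none of the 4 comparisons that hold them. No paired analysis was possible because the library numbers are unique and groups share no replicate numbers. The lowest count of any of the 10 genes in a library was 40. Reads shared between overlapping genes on opposite strands could not be separated.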
